A study of Mus musculus with 19 samples.

Results

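The comparison described here is between sorted dorsal root ganglion cells given vectors for α9 integrin and kindlin-1 and cells given GFP alone. Both, which the study treats as sensory neurons, were taken after dorsal root crush. The comparison used 8 of the 19 libraries of the series, 4 labelled α9k1-crush and 4 labelled GFP-crush, and 12629 genes measured in every library. In the α9k1-crush group, left cervical dorsal root ganglia (DRGs) received a mixture of AAV5-α9-V5, which encodes α9 integrin behind the CAG promoter, and AAV5-kindlin1-GFP, which encodes the integrin activator kindlin-1 fused to GFP behind the CMV promoter. In the GFP-crush group the same DRGs received AAV5-fGFP, a farnesylated GFP behind the CMV promoter. The dorsal roots, the central branch of the sensory axons, were crushed in both groups at the time of injection. DRGs were collected after 8 weeks, dissociated and sorted by FACS for GFP. The 11 libraries without crush, 6 α9k1-naive and 5 GFP-naive, entered the same statistical fit and served to ask whether a difference was also present in uninjured DRGs.

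Several features limit what these groups model. Neither promoter is restricted to neurons, and the sort was on GFP, which in the α9k1 groups marks kindlin-1 and not α9 integrin, so a sorted cell need not carry both vectors. The labels name C57BL/6 mice, whereas the methods of the study describe adult male Lewis rats. Reads were aligned to the mouse genome mm10, and all gene names and positions below are those of mouse genes. Virally encoded and endogenous transcripts of α9 integrin or kindlin-1 cannot be told apart in gene totals. No label ties a library to an animal, so the spread between libraries is treated as the spread between samples.

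As background, integrins are αβ heterodimers that link the extracellular matrix to the actin cytoskeleton. The α9 chain pairs with β1 and binds tenascin-C, a matrix glycoprotein that accumulates in injured spinal cord, and kindlin-1 binds the β1 tail and keeps the heterodimer in its active state. Injury to the peripheral branch of a sensory axon is known to induce immediate early transcription factors, gp130 cytokines such as interleukin-6 and a set of regeneration-associated genes, whereas a crush of the central branch in the dorsal root induces them weakly.

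The libraries held 47645987 to 83646980 read pairs in α9k1-crush and 40978846 to 52551753 in GFP-crush. Between 47.5 and 53.4% of reads aligned. Pairs of libraries within 1 of these groups correlated at r = 0.948 to 0.968 over all genes, and none held identical values. Several library metrics did not overlap between both groups. Intronic bases made up 1.35 to 1.62% of aligned bases in α9k1-crush and 2.11 to 2.93% in GFP-crush, intergenic bases 3.18 to 3.64% and 4.88 to 5.98%, and ribosomal bases 0.0169 to 0.029% and 0.0723 to 0.132%. Mismatched bases made up 3.96 to 4.03% and 3.87 to 3.93%. Their part in the gene differences was not tested, other than by the covariates described next.

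Values are given on 2 scales. The deposited value is the authors' normalised expression, in log2 units, of 1 gene in 1 library. The log2FC is the α9k1-crush minus GFP-crush difference fitted by limma at equal values of 3 covariates, which summarise the library metrics (AlignSeq.PC1 to PC3), as in the model the study states. A gene is said to have risen or fallen when its Benjamini-Hochberg adjusted p over all 12629 genes was under 0.1. Of all genes, 92 rose (0.728%) and 23 fell (0.182%), together 0.911%, and 1151 (9.11%) were at an unadjusted p under 0.05. Without the covariates, 3743 genes (29.6%) passed as higher and 3580 (28.3%) as lower, together 58.0%. In the deposited values themselves, all 4 α9k1-crush libraries lay above all 4 GFP-crush libraries for 2530 genes (20.0%) and below them for 2623 (20.8%). Counts of members are read against these shares, and "stood apart" below means that the 4 libraries of one group did not overlap those of the other. The covariates differed between the groups, which accounted for 64.8, 61.5 and 75.0% of their variance over the 8 libraries. With them the variance factor of the comparison was 3.11 against 0.5 without, and the smallest log2FC that passed was 0.91 among genes that rose.

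**Figure D1:**
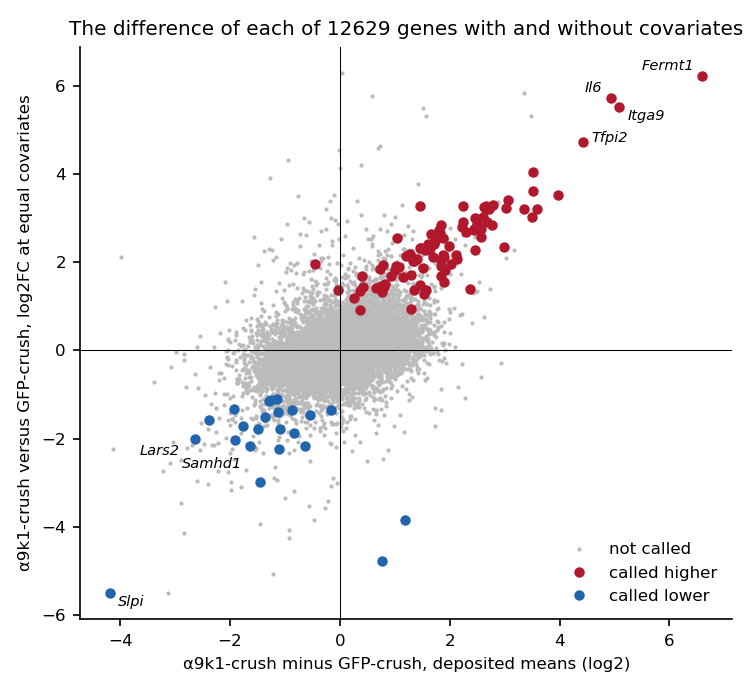
Each of 12629 genes by its α9k1-crush minus GFP-crush difference in deposited means (log2, x axis) and by its log2FC at equal covariates (log2, y axis). Grey points did not pass the test, the 92 red points rose and the 23 blue points fell. Most genes spread along the x axis within a narrow band of log2FC, and the genes that rose lie mainly in the upper right, with Fermt1, Il6, Itga9 and Tfpi2 farthest out. The 2 blue points at positive x are Gm25248 and Gm14388, whose deposited means differed in the other direction, and which passed in 19 and 16 of 19 fits that left out 1 library. Among red points, Klf4 and Pign also had deposited means that differed in the other direction, and they passed in 11 and 18 of these fits.

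The genes that rose had a median log2FC of 2.28 and those that fell of -1.78, beside 0.0121 over all genes. Of the 92 genes that rose, 83 stood apart in the deposited values, and of the 23 that fell, 18 did. In the libraries without crush the mean was higher with α9k1 for 90 of the 92 genes, beside 41.4% of all genes. It was lower for 19 of the 23, beside 58.6% of all genes. These libraries entered the fit that gave the 92 and 23 genes, so both counts are not independent of that choice. The median difference of the 92 genes was 1.83 after crush and 2.36 without crush. Among the 4 group means the highest was that of α9k1-naive for 78 of the 92 genes and that of α9k1-crush for 12, and the lowest was that of GFP-crush for 83. The interaction, which tests whether the α9k1 difference after crush differed from that without crush, passed for 278 of all genes (2.2%). It passed as positive for 7 of the 92 genes and as negative for 5. Of the 92 genes 44 also passed in each of 19 fits that left out 1 library, and of the 23 genes 2 did, so for other genes the number of these fits passed is given beside the result.

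The delivered genes were checked first. Fermt1, which encodes kindlin-1 (mm10 chr2:132904389-132945906, minus strand), had deposited values of 7.70, 6.82, 7.73 and 6.42 in the α9k1-crush libraries and of 0.56, 0.42, 0.72 and 0.56 in the GFP-crush libraries. Its log2FC was 6.21 (SE 0.59, adjusted p = 0.000122), the largest among the genes that rose. Itga9, which encodes α9 integrin (mm10 chr9:118606690-118901003, plus strand), stood at 7.51, 6.51, 6.82 and 5.53 in α9k1-crush and at 1.67, 0.90, 1.55 and 1.92 in GFP-crush. Its log2FC was 5.51 (SE 1.13, adjusted p = 0.0381). In α9k1-naive Itga9 ranged from 2.38 to 5.16, below each α9k1-crush library, and its interaction of 3.79 did not pass (adjusted p = 0.117). The call for Itga9 was lost without GFP-crush 2 (log2FC 4.97, adjusted p = 0.261), α9k1-naive 4 (5.66, adjusted p = 0.108) or GFP-naive 1 (5.24, adjusted p = 0.154). Thus all 8 libraries matched their labels.

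Of 36 other integrin genes and adhesion adaptors measured, 1 rose and none fell, with a median log2FC of 0.06. It was Nedd9, a scaffold protein of focal adhesions, with deposited values of 4.88, 5.14, 5.15 and 5.12 in α9k1-crush and 3.38, 3.58, 3.64 and 3.41 in GFP-crush (log2FC 1.37, SE 0.30, adjusted p = 0.0524), which passed in 12 of the 19 fits and had a log2FC of 1.23 to 1.40 in the other 7. Nedd9 shares 62 exon bases with Gm32401 on the opposite strand. Itgb1, the β1 chain with which α9 pairs, was 1.05 higher in deposited means and stood apart, but did not pass the test (log2FC 0.66, SE 0.23, adjusted p = 0.375). Bcar1, which encodes the focal adhesion scaffold p130Cas, was 0.84 higher and likewise did not pass. In all, 10 members stood apart as higher and 5 as lower, including Tln1, which encodes talin-1, with a difference of -0.60.

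Several cytokine and chemokine genes rose. Of 32 measured members, 6 rose (Il6, Cxcl1, Cxcl10, Ccl2, Ccl7 and Ccl11) and none fell. Il6 encodes the gp130 cytokine interleukin-6, which sensory neurons make after peripheral nerve injury. It lies at mm10 chr5:30013114-30019981 on the plus strand. Deposited values of Il6 were 5.38, 5.67, 5.22 and 5.19 in α9k1-crush and 0.37, 0.26, 0.52 and 0.57 in GFP-crush. The log2FC of Il6 was 5.71 (SE 0.43), with the smallest adjusted p of all genes, 1.63e-05. Without crush Il6 ranged from 7.44 to 7.67 with α9k1 and from 1.29 to 2.43 with GFP, so both crush groups were below their naive counterparts while the α9k1 difference was of like size (interaction -0.12, SE 0.41, adjusted p = 0.936).

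Cxcl1, a chemokine for neutrophils, stood at 6.36, 6.83, 5.83 and 6.37 against 2.58, 3.13, 2.52 and 3.11 (log2FC 3.61, SE 0.51, adjusted p = 0.00256). Ccl2, a monocyte chemokine that is also counted among the regeneration-associated genes of sensory neurons, stood at 9.97, 10.25, 9.80 and 10.07 against 7.34, 7.21, 7.92 and 7.19 (log2FC 3.02, SE 0.34, adjusted p = 0.00049). No library of one group reached the other in either gene. Cxcl10, an interferon-induced chemokine for T cells, rose by 3.27 (SE 0.46), Ccl7 by 2.85 (SE 0.59) and Ccl11 by 2.28 (SE 0.35). Cxcl10 shares 133 exon bases with Art3 on the opposite strand. Ccl7 was one of the 5 genes that rose after crush with a negative interaction (-2.14, adjusted p = 0.0918), its deposited difference being 2.77 after crush and 4.78 without, and it was not called without α9k1-naive 4, GFP-crush 2 or GFP-naive 1 (log2FC 2.51 to 2.79, adjusted p = 0.168 to 0.215). Il1b, which encodes interleukin-1β, was 3.46 higher in deposited means and stood apart but did not pass the test (log2FC 4.01, SE 1.08, adjusted p = 0.172).

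Other chemokines of the same list were lower in α9k1-crush, and none of these passed the test. Ccl5, a T cell chemokine, stood at 3.41, 4.44, 3.97 and 3.59 in α9k1-crush against 7.04, 6.43, 7.06 and 7.24 in GFP-crush (log2FC -2.55, SE 0.77, adjusted p = 0.252). Ccl12 stood at 0.87, 1.09, 0.90 and 0.66 against 3.0, 2.89, 4.08 and 3.13 (log2FC -3.03, SE 0.97, adjusted p = 0.299). Both stood apart, and without crush both means were higher with α9k1. Their interactions passed, at -3.42 (SE 0.73, adjusted p = 0.0384) for Ccl5 and -4.36 (SE 0.92, adjusted p = 0.0379) for Ccl12. Cxcl9 and Cxcl11, which are induced by interferon-γ, had interactions of -4.02 (adjusted p = 0.00674) and -3.51 (adjusted p = 0.0362), and Cxcl9 was 1.29 lower after crush and 3.22 higher without. Over the list, 11 members stood apart as higher and 8 as lower, 7 interactions passed as negative and none as positive, and the median log2FC of 0.49 and the median deposited difference of -0.31 were of opposite sign.

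**Figure D2:**
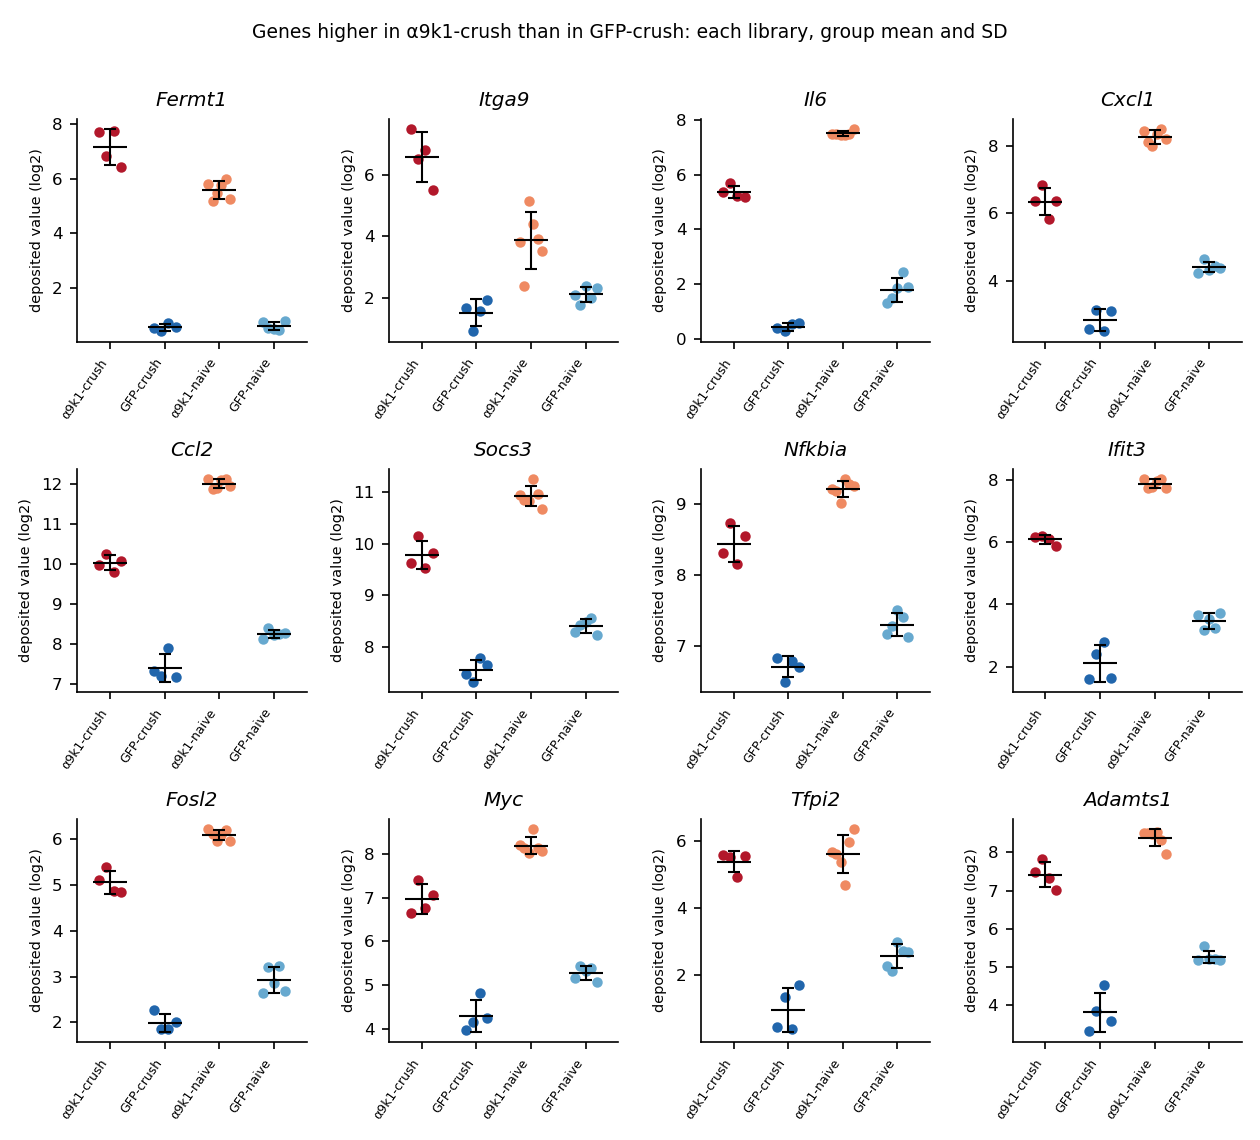
Deposited values (log2) of 12 genes that rose in α9k1-crush, 1 panel a gene, with 1 point per library in α9k1-crush (n = 4), GFP-crush (n = 4), α9k1-naive (n = 6) and GFP-naive (n = 5). Wide bars are group means and whiskers the SD, and the y axes differ and do not start at 0. In each panel the α9k1-crush points lie above all GFP-crush points. For Il6, Cxcl1, Ccl2, Socs3, Nfkbia, Ifit3, Fosl2, Myc and Adamts1 every α9k1-naive point is higher still, whereas Fermt1 and Itga9 are highest in α9k1-crush.

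Promoter sequence is shown for 5 of the genes that rose, because NF-κB and interferon-regulated factors are the known activators of these families. The windows are the 250 bases before the RefSeq start in GRCm38.p6, printed in the direction of transcription. RefSeq windows were found for 8363 of the 12629 genes and for 69 of the 92 that rose. Capitals mark matches to GGGA and CC with any 4 bases between them, a form of the NF-κB motif, searched on both strands. At least 1 match occurred in 2431 of 10904 such windows (22.3%), so a match is common. The 5 genes were chosen singly, and the share with a match among the 69 was not counted. Their matches therefore do not show whether genes that rose carry the motif more often. In Il6 (chr5:30012864-30013113, plus strand) 2 overlapping matches begin at -44 and -43 from the start, and in Cxcl1 (chr5:90890995-90891244, plus strand) 3 begin at -90, -71 and -70.
Il6: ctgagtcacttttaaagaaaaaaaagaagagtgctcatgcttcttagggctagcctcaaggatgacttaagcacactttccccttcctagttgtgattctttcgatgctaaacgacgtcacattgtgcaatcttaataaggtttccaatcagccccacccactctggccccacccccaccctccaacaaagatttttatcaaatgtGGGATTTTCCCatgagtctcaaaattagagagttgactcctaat
Cxcl1: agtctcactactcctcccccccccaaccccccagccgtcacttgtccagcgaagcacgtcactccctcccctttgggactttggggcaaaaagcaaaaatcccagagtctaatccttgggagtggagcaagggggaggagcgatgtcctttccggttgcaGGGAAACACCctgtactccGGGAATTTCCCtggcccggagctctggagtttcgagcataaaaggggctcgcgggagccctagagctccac

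Nfkbia and Tnfaip3, a pair of inhibitors that NF-κB itself induces, rose. Of 24 measured NF-κB subunits and target inhibitors, 3 rose (Nfkbia, Tnfaip3 and Ripk1), none fell, 11 stood apart as higher and none as lower. Nfkbia encodes IκBα, which holds NF-κB in the cytoplasm and is a rapid target of it. Its deposited values were 8.32, 8.74, 8.16 and 8.55 in α9k1-crush and 6.84, 6.50, 6.79 and 6.70 in GFP-crush (log2FC 2.48, SE 0.26, adjusted p = 0.000274). Tnfaip3, which encodes the ubiquitin-editing enzyme A20, rose by 2.42 (adjusted p = 0.0179) and Ripk1, a kinase of TNF receptor signalling, by 1.68 (adjusted p = 0.0205). Ripk1 shares 511 exon bases with Gm17084 on the same strand. Tnfaip3 and Ripk1 each failed only without GFP-crush 2, at 2.29 and 1.43 (adjusted p = 0.14 and 0.208). Nfkbiz and Nfkb1 stood apart with differences of 1.74 and 0.80 and did not pass. The Nfkbia window (chr12:55492648-55492897, minus strand) holds 2 matches to the same letters, beginning at -212 and -29.
Nfkbia: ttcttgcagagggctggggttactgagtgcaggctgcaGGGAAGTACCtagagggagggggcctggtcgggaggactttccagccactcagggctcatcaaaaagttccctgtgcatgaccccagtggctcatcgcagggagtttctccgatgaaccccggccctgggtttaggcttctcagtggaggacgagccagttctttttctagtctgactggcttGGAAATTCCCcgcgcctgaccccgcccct

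Of the suppressors of cytokine signalling, which act downstream of gp130, Socs3 and Socs1 rose. Socs3, which STAT3 induces and which limits the growth response of neurons to gp130 cytokines, stood at 9.64, 10.16, 9.54 and 9.83 against 7.47, 7.33, 7.78 and 7.65 (log2FC 2.79, SE 0.34, adjusted p = 0.000915). Socs1 rose by 1.84 (adjusted p = 0.00864), and failed only without GFP-crush 2 (1.56, adjusted p = 0.105). They were the 2 of 27 measured genes of gp130 receptors, STATs and SOCS proteins that rose, and none fell. Il6st, which encodes gp130, and Stat3 stood apart with differences of 1.53 and 1.10, and neither passed (adjusted p = 0.71 and 0.52).

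Of interferon-stimulated genes and nucleic acid sensors more rose than fell. Of 48 measured members, 7 rose (Ifit3, Mb21d1, Ifit2, Rsad2, Irf1, Ifih1 and Irf7), 1 fell (Bst2), and 21 stood apart as higher and 6 as lower. Ifit3, an antiviral protein that binds RNA complexes, stood at 6.16, 6.20, 6.11 and 5.88 in α9k1-crush and at 1.60, 2.40, 2.81 and 1.65 in GFP-crush (log2FC 3.52, SE 0.50, adjusted p = 0.00256). Rsad2, which encodes viperin, stood at 5.20, 5.20, 5.16 and 4.38 against 1.16, 1.65, 1.36 and 1.79 (log2FC 3.03, SE 0.49, adjusted p = 0.00763). Irf1, a transcription factor of the interferon response, rose by 2.74 (SE 0.25, adjusted p = 0.000122), one of the most precisely estimated changes. It shares 135 exon bases with Gm17334 on the opposite strand. Irf7, which shares 45 with Phrf1 on the opposite strand, rose by 1.54 (adjusted p = 0.0105) and failed only without GFP-crush 2 (1.29, adjusted p = 0.131).

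The sensors of this list were Mb21d1, which encodes the DNA sensor cGAS, with a log2FC of 3.30 (SE 0.42, adjusted p = 0.0011), and Ifih1, which encodes the RNA sensor MDA5, with 2.57 (adjusted p = 0.00345). Mb21d1 shares exon bases with Gm8093, and its interaction was negative (-1.78, adjusted p = 0.0479). Bst2, which encodes tetherin, stood at 2.26, 2.66, 2.38 and 2.22 against 3.06, 3.61, 3.70 and 3.53 (log2FC -1.78, SE 0.42, adjusted p = 0.0857). Bst2 was lower with α9k1 without crush as well, by 1.50 in deposited means. The test of Bst2 was passed in 6 of the 19 fits, with a log2FC of -1.83 to -1.70 in the other 13. Over the list 11 interactions passed as negative and none as positive, and the median deposited difference was 0.57 after crush and 1.11 without.

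The windows of Ifit3 (chr19:34583279-34583528, plus strand) and Rsad2 (chr12:26456453-26456702, minus strand) are shown because both carry a match to a pair of GAAA with any 2 bases between them, the core of the interferon-stimulated response element. It was found on either strand in 262 of the 10904 windows (2.4%), and the share among genes that rose was not counted. In Ifit3 the matches begin at -156 and -122 and in Rsad2 at -120.
Ifit3: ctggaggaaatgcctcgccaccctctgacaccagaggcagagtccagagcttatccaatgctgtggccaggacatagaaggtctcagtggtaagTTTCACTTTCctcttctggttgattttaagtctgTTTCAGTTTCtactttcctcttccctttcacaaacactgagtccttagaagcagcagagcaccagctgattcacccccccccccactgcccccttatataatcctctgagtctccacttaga
Rsad2: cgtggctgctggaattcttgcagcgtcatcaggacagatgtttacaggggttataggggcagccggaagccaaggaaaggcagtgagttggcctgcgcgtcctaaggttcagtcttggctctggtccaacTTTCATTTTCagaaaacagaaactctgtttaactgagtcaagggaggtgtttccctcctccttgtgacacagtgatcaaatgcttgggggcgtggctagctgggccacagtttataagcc

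Many of these cytokine and interferon genes are also expressed by macrophages and glia, so the markers of those cells are given beside them. Of 18 macrophage markers 14 were measured, and none rose or fell. Their mean deposited value ranged from 5.53 to 6.37 in α9k1-crush and from 5.61 to 6.22 in GFP-crush, so the groups overlapped. Their median deposited difference was -0.19, while at equal covariates their median log2FC was 0.60 and 10 of 14 were above 0. Without crush it ranged from 5.23 to 5.83 with α9k1 and from 4.20 to 4.78 with GFP. None of the 9 neutrophil markers was in the table. Cybb, which encodes the phagocyte oxidase subunit gp91phox, rose (3.83, 3.84, 3.83 and 3.92 against 2.13, 1.79, 2.99 and 2.65, log2FC 3.28, SE 0.68, adjusted p = 0.0407), with a positive interaction of 2.60 (adjusted p = 0.0713), and failed without GFP-crush 2 (2.95, adjusted p = 0.271) or GFP-naive 1 (3.12, adjusted p = 0.163). Nos2, inducible nitric oxide synthase, rose by 4.05 (SE 0.89, adjusted p = 0.0558), and passed in 13 of the 19 fits, with 3.06 to 4.15 in the other 6. The part of other cell types in these results was not tested, and in sorted bulk samples more cells of a type and more RNA per cell cannot be told apart.

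After the delivered genes, immediate early genes formed the list with the largest share of members that rose, 18 of 43, and none fell. The median log2FC of the list was 1.66, its median deposited difference 1.05 after crush and 1.14 without crush, and none of its interactions passed. In the deposited values 29 members stood apart as higher and none as lower. Fosl2, an AP-1 subunit, stood at 5.11, 5.40, 4.88 and 4.86 in α9k1-crush and at 2.27, 1.85, 1.85 and 2.01 in GFP-crush (log2FC 3.42, SE 0.36, adjusted p = 0.000274). Myc, a growth-promoting transcription factor, stood at 6.65, 7.40, 6.77 and 7.06 against 3.98, 4.17, 4.83 and 4.27 (log2FC 3.20, SE 0.46, adjusted p = 0.00308). Both genes were higher again in α9k1-naive, at 5.97 to 6.23 for Fosl2 and 8.01 to 8.56 for Myc.

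Within the AP-1 family Fosl1 rose by 3.20 (adjusted p = 0.00247), Fos by 2.32 (adjusted p = 0.00287), Junb by 2.13 (adjusted p = 0.0118) and Jun by 1.31 (adjusted p = 0.0393). Atf3, the partner of Jun that marks injured sensory neurons, stood at 8.55, 9.02, 8.25 and 8.73 against 6.46, 6.84, 6.33 and 6.46 (log2FC 2.16, SE 0.36, adjusted p = 0.00893). Although both groups had been crushed, Atf3 was highest without crush, at 10.03 to 10.17 in α9k1-naive, and lowest in GFP-crush. Zfp36, which encodes the mRNA-destabilising protein tristetraprolin, rose by 3.0 (adjusted p = 0.000924), Egr2 by 2.76 (adjusted p = 0.00598) and Egr1 by 2.12 (adjusted p = 0.0141). Egr1 failed only without GFP-crush 2 (2.06, adjusted p = 0.105), and Jun without α9k1-naive 4 or GFP-naive 1 (1.11 and 1.31, adjusted p = 0.162 and 0.141). Fosl1 shares 1163 exon bases with Ccdc85b, Jun 232 with Junos, Junb 173 with Prdx2 and Zfp36 125 with Gm44710, all on the opposite strand. Fos, Jun, Junb, Atf3 and Egr1 were named after their values had been seen.

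Regeneration-associated genes were divided. Of 63 measured members 7 rose and none fell. Those with the largest log2FC were Il6, Ccl2, Socs3 and Cebpb (2.73, adjusted p = 0.0011), which encodes a C/EBP factor of the injury and acute phase response. Cebpb shares 312 exon bases with Tmem189 on the opposite strand. Socs3 is in the list as an injury-induced gene, although it is known to restrain regeneration. L1cam, an adhesion molecule of growing axons, stood apart with a difference of 1.60 and Plau, the urokinase plasminogen activator, with 3.02, and neither passed (adjusted p = 0.91 and 0.305). Gap43 and Sprr1a, classical markers of axon growth, had lower means. Gap43 had a difference of -0.74 (log2FC -0.88, SE 0.59, adjusted p = 0.7) and Sprr1a one of -0.29 (log2FC -1.90, SE 1.44, adjusted p = 0.744). Lgals1, which encodes galectin-1, had a difference of -1.30 and stood apart as lower without passing. In all, 19 members stood apart as higher and 9 as lower.

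Among Krüppel-like factors and the Myc network, 3 of 20 measured members rose, namely Myc, Klf6 and Klf4. Klf6 promotes axon growth in sensory and retinal neurons, and rose by 1.92 (adjusted p = 0.015). Klf4, which inhibits axon growth, passed with a log2FC of 1.37 (SE 0.31, adjusted p = 0.0609), but its deposited means differed by -0.03, so its rise appeared only at equal covariates, and it passed in 11 of the 19 fits, with 1.21 to 1.50 in the other 8. Of 4 transcription factors that the study names as candidate regulators and 2 casein kinases that it also names, none rose or fell. Mef2a, Csnk1a1 and Csnk1d stood apart as higher with differences of 1.30, 0.71 and 0.65. E2f4 stood apart as lower at -0.22, and Runx3 and Yy1 overlapped at 1.08 and -0.09. The study singled out these genes on the same samples.

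Growth arrest genes that respond rapidly to stress rose in part. Gadd45g rose by 2.66 (adjusted p = 0.000831), Btg2, an antiproliferative protein of postmitotic cells, by 2.63 (adjusted p = 0.00664) and Gadd45b by 1.47 (adjusted p = 0.092). Gadd45b passed in 4 of the 19 fits, with 1.34 to 1.67 in the other 15. They were 3 of 30 measured growth arrest and p53 target genes. Trp53 itself had a deposited difference of -0.77. Among heat shock proteins 3 of 41 rose, the inducible chaperones Hspa1a and Hspa1b and their co-chaperone Dnajb1. Deposited values of Hspa1a were 5.77, 5.81, 5.23 and 5.97 against 4.02, 4.30, 4.79 and 4.57 (log2FC 2.17, SE 0.40, adjusted p = 0.0204). Hspa1b rose by 2.27 (SE 0.42, adjusted p = 0.0179). The coding sequences of both are nearly identical, so reads could be split between them, and Hspa1a shares 564 exon bases with Gm20481 on the opposite strand. Their interactions passed as positive (1.59, adjusted p = 0.0651, and 1.49, adjusted p = 0.0927), since the difference without crush was 0.30 for Hspa1a and 0.53 for Hspa1b. The metallothioneins Mt1 and Mt2, which bind zinc and copper, rose by 1.82 (adjusted p = 0.0449) and 1.70 (adjusted p = 0.0905), and were the 2 of 36 antioxidant genes that did. Mt2 shares 432 exon bases with Gm45774 on the opposite strand. Hspa1a failed only without α9k1-naive 4 (2.02, adjusted p = 0.1) and Hspa1b only without GFP-crush 2 (2.14, adjusted p = 0.145). Of the 19 fits Dnajb1 passed in 13, Mt1 in 15 and Mt2 in 6, and the log2FC in the others were 1.43 to 1.62, 1.73 to 1.94 and 1.47 to 1.96.

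Extracellular proteases and their inhibitors changed in both directions. Of 34 measured members 2 rose, among them Adamts1, and Slpi fell. Adamts1, a secreted metalloprotease that cleaves proteoglycans of the matrix, stood at 7.49, 7.81, 7.34 and 7.02 in α9k1-crush and at 3.34, 3.84, 4.52 and 3.59 in GFP-crush (log2FC 3.21, SE 0.56, adjusted p = 0.0118). Outside the list, Tfpi2, a matrix-bound inhibitor of plasmin, stood at 5.57, 5.52, 4.92 and 5.54 against 0.43, 1.36, 0.38 and 1.69 (log2FC 4.73, SE 0.82, adjusted p = 0.0118). Tnfaip6, a hyaluronan-binding protein of inflamed tissue, rose by 3.26 (SE 0.62, adjusted p = 0.0218, and 2.83 with adjusted p = 0.208 without GFP-crush 2) and Angptl4, a secreted inhibitor of lipoprotein lipase, by 3.22 (SE 0.47, adjusted p = 0.0032).

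Slpi showed the largest fall and a reversal between conditions. It encodes secretory leukocyte protease inhibitor and lies at mm10 chr2:164354070-164389095 on the minus strand. Its deposited values were 4.71, 4.84, 5.81 and 4.91 in α9k1-crush and 9.09, 8.86, 9.35 and 9.70 in GFP-crush (log2FC -5.49, SE 1.05, adjusted p = 0.0237). Without crush the order was the opposite, with 5.73 to 6.91 in α9k1-naive and 2.26 to 4.30 in GFP-naive. The interaction was -8.20 (SE 1.0, adjusted p = 0.00195). All GFP-crush libraries were thus above those of the other groups. Slpi did not pass after crush without α9k1-naive 4 (log2FC -5.23, adjusted p = 0.109) or GFP-naive 1 (log2FC -4.36, adjusted p = 0.123).

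Samhd1, a nucleotide hydrolase that limits viral DNA synthesis, had the same order of groups. It stood at 2.83, 2.86, 2.87 and 3.20 in α9k1-crush and at 4.41, 4.43, 4.90 and 4.56 in GFP-crush (log2FC -2.16, SE 0.49, adjusted p = 0.0668), and the interaction was -3.37 (SE 0.46, adjusted p = 0.00475). Il4i1, a secreted amino acid oxidase of myeloid cells, stood at 2.52, 2.49, 3.0 and 3.05 against 4.31, 4.45, 3.82 and 4.33 (log2FC -2.97, SE 0.69, adjusted p = 0.08), with an interaction of -3.40 (SE 0.65, adjusted p = 0.0246). Il4i1 shares 3423 exon bases with Tbc1d17 and further bases with Atf5 and Nup62, so part of its reads could belong to these genes. Without 1 library the test was passed in 10 of 19 fits for Samhd1 and in 7 of 19 for Il4i1, and the log2FC in the others were -2.28 to -1.52 and -3.44 to -2.51. Arhgap15, a GTPase-activating protein of Rac expressed in leukocytes, fell by 2.23 on the log2 scale (SE 0.45, adjusted p = 0.0336), from 3.18, 3.93, 3.90 and 3.67 in GFP-crush to 2.37, 2.76, 2.65 and 2.48 in α9k1-crush. It shares 73 exon bases with Arhgap15os on the opposite strand. Unlike Slpi it was also lower with α9k1 without crush, by 1.37, and its interaction of -0.85 did not pass (adjusted p = 0.388). Its fall was not called without α9k1-naive 4 or GFP-crush 2 (log2FC -2.12 and -2.22, adjusted p = 0.133 and 0.174).

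**Figure D3:**
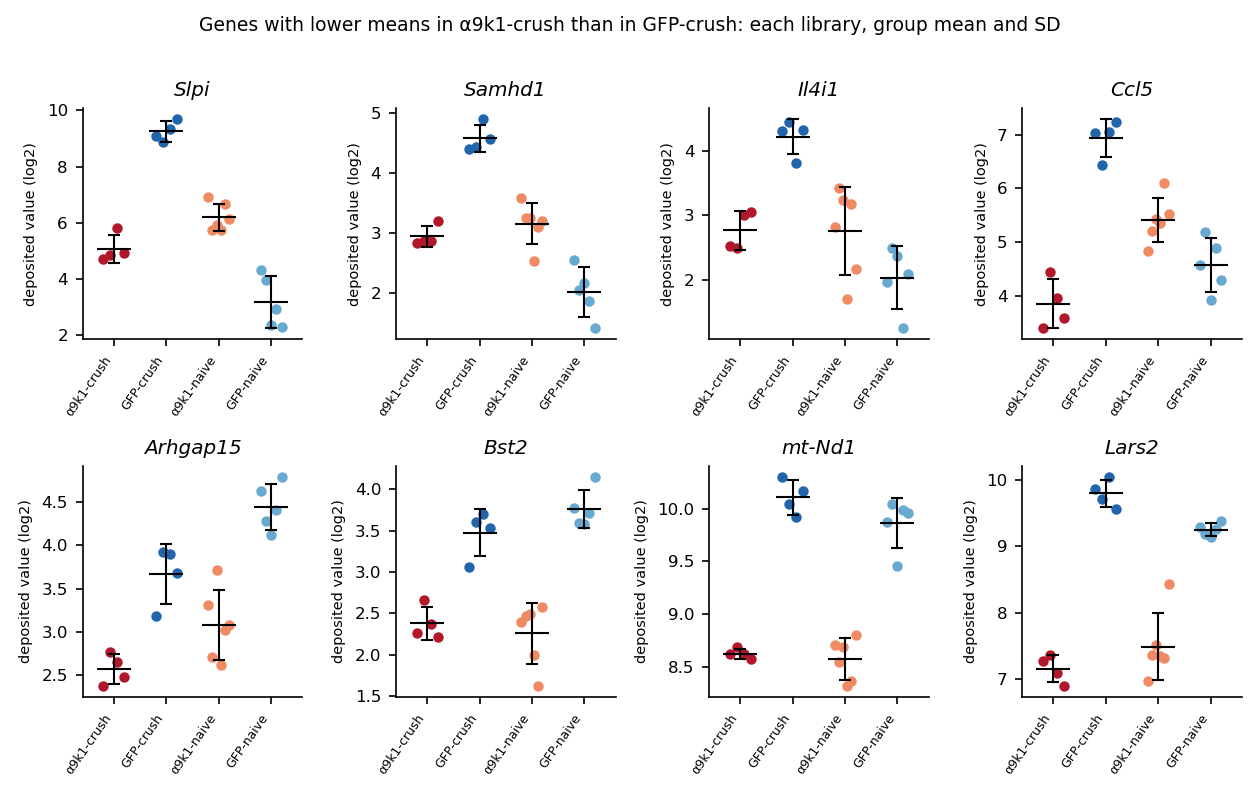
Deposited values (log2) of 8 genes with lower means in α9k1-crush than in GFP-crush, drawn as in the plot of genes that rose, with α9k1-naive (n = 6) and GFP-naive (n = 5) beside them. Slpi, Samhd1, Il4i1 and Ccl5 are highest in GFP-crush and have lower means in GFP-naive than in α9k1-naive. Arhgap15, Bst2, mt-Nd1 and Lars2 have lower means in both α9k1 groups than in both GFP groups, and Ccl5 is the only one of the 8 that did not pass the test.

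Several genes of the mitochondrial genome fell. This list was added after the values had been seen. All 26 measured mitochondrially encoded genes had a lower deposited mean in α9k1-crush and 15 of them stood apart, while at equal covariates the log2FC ran from -2.11 to 1.97 and was above 0 for 11 of them, and 6 fell (mt-Nd1, mt-Nd2, mt-Co3, mt-Cytb, mt-Rnr1 and mt-Rnr2). The NADH dehydrogenase subunit mt-Nd1 stood at 8.62, 8.68, 8.62 and 8.57 in α9k1-crush and at 10.30, 10.04, 9.92 and 10.17 in GFP-crush (log2FC -1.79, SE 0.34, adjusted p = 0.0237). The small ribosomal RNA mt-Rnr1 stood at 7.82, 7.93, 7.16 and 7.59 against 10.15, 9.70, 10.15 and 10.02 (log2FC -1.58, SE 0.29, adjusted p = 0.02), and passed in all 19 fits. In these fits mt-Nd1 failed only without α9k1-naive 4 (-1.65, adjusted p = 0.114), and mt-Nd2 passed in 16, mt-Co3 in 13, mt-Rnr2 in 4 and mt-Cytb (log2FC -1.12, adjusted p = 0.0906) in 3. Without crush mt-Nd1 was lower by 1.29 and mt-Rnr1 by 1.47, and 16 of the 26 genes had a lower mean, with a median difference of -0.21 beside -1.03 after crush.

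Lars2, the nuclear gene of mitochondrial leucyl-tRNA synthetase, stood at 7.27, 7.36, 7.10 and 6.89 against 9.86, 9.71, 10.04 and 9.57 (log2FC -2.01, SE 0.42, adjusted p = 0.0407), and was not called without α9k1-crush 4, α9k1-naive 4, GFP-crush 2, GFP-naive 1 or GFP-naive 3 (log2FC -2.03 to -1.76, adjusted p = 0.112 to 0.269). Ribosomal bases, which were also fewer in every α9k1-crush library (0.0169 to 0.029% against 0.0723 to 0.132%), moved with Lars2 and the mitochondrial ribosomal RNAs, and their part in these results was not tested. Nuclear genes of oxidative phosphorylation had lower means in the deposited values, and none passed the test. Of 78 measured members 51 stood apart as lower, 2 as higher, and none rose or fell at equal covariates, where the median log2FC was -0.19 against a median deposited difference of -0.56 and 16 members had a log2FC above 0. Ndufb4, a subunit of complex I, had a difference of -1.28 but a log2FC of -0.10.

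Ribosomal protein genes showed the same contrast between scales. Of 77 cytosolic ribosomal proteins 63 stood apart as lower and 1 as higher, with a median deposited difference of -0.90 and a median log2FC of -0.25. Only Rpl39 fell (log2FC -1.15, SE 0.27, adjusted p = 0.0817, 7 of the 19 fits), and Rpl37 had a difference of -1.73 without passing. Of 76 mitochondrial ribosomal proteins 53 stood apart as lower, 1 as higher, and none rose or fell. Among 38 proteasome subunits 15 stood apart as lower and 5 as higher, with a median deposited difference of -0.12. Pseudogenes made up 6 of the 23 genes that fell and 3 of the 92 that rose, beside 1117 of all genes (8.84%).

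Transcripts of these lists were shorter than those of all genes, with a median of 1047 bases for cytosolic ribosomal proteins, 1186 for oxidative phosphorylation, 1806.5 for mitochondrial ribosomal proteins and 1851 for the proteasome, beside 2894 for all genes. The deposited difference followed transcript length over all genes. With genes sorted by length into 10 bins, the median deposited difference was -0.575 in the bin of 38 to 604 bases, 0.0728 in that of 2368 to 2894 bases and 0.351 in that of 4717 to 6065 bases. Across 12610 genes the rank correlation of the deposited difference with transcript length was 0.414, and that with GC content was -0.0498. At equal covariates the medians of the bins ran from -0.189 to 0.159 and the correlation with length was 0.187. Genes share libraries and are not independent replicates, so these are descriptions. The part of transcript length in the counts of genes that stood apart was not tested.

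**Figure D4:**
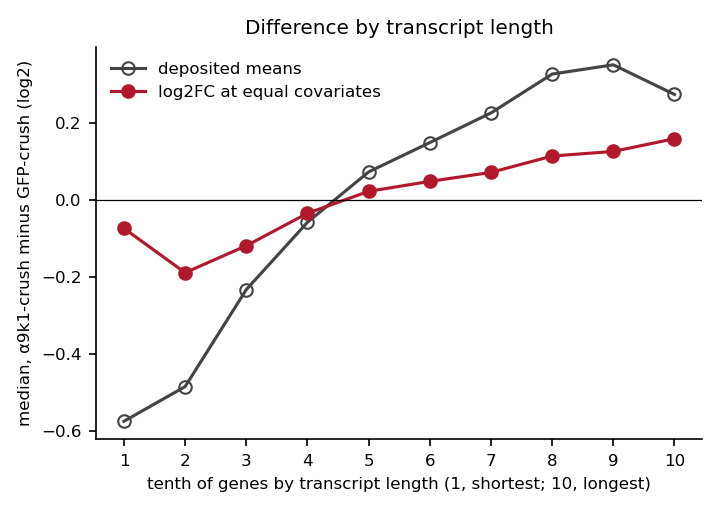
Median α9k1-crush minus GFP-crush difference (log2, y axis) of genes in 10 bins of transcript length, from shortest to longest (x axis), for the deposited means (open circles) and for the log2FC at equal covariates (filled circles). Deposited medians run from -0.575 in the shortest bin to 0.351 in the ninth, and the range is narrower at equal covariates, from -0.189 to 0.159.

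The gene lists that the study drew up on these samples as rising with regeneration were higher in the deposited values, which is what they were chosen for, and this is not independent evidence of their direction. All 23 measured autophagy genes stood apart as higher, with a median difference of 0.96, as did 17 of 17 genes of the endoplasmic reticulum and endosomes (1.01), 79 of 83 of transport and trafficking (0.99), 50 of 51 of the cytoskeleton (1.02) and 47 of 52 of ubiquitination (0.74). At equal covariates 2 of the transport genes rose, Rgs2 (log2FC 2.19, adjusted p = 0.0905) and G3bp2 (log2FC 0.93, adjusted p = 0.044), a stress granule protein that shares 2050 exon bases with Gm26582 on the opposite strand. They passed in 4 and 15 of the 19 fits, with 1.74 to 2.46 and 0.82 to 0.92 in the others. No other member of the 5 lists rose or fell. Their median log2FC lay between 0.30 and 0.49, above 0.0121 for all genes. Tbc1d14, a regulator of autophagosome formation, stood at 5.12, 5.03, 5.45 and 5.30 against 3.62, 3.90, 3.52 and 3.32 (log2FC 1.04, SE 0.30, adjusted p = 0.219). Mfn2, which mediates mitochondrial fusion, stood at 6.66, 6.74, 6.91 and 6.66 against 5.29, 5.42, 5.26 and 4.97 (log2FC 1.05, SE 0.29, adjusted p = 0.182).

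Lists drawn from known biology for the same processes had smaller medians in the deposited values. Median transcript lengths were 3751 bases for core autophagy, 3996.5 for cullin, APC/C and SCF ligases and 4136 for motors, beside 2894 for all genes. In the 5 study lists they were 3871 to 4341. Over all genes the bins of 3423 to 4011 and 4012 to 4715 bases had median deposited differences of 0.226 and 0.327. The part of transcript length in these lists was not tested. Of 47 core autophagy genes 21 stood apart as higher and 4 as lower, with a median difference of 0.32, and none rose or fell. Ulk1, the kinase that starts autophagy, was 1.31 higher and Gabarap, a ubiquitin-like protein of autophagosomes, was 0.85 lower, and both stood apart. Of 52 subunits of cullin, APC/C and SCF ubiquitin ligases 22 stood apart as higher and 7 as lower, with a median difference of 0.38. Among 42 motor subunits the counts were 21 and 5, with a median difference of 0.42. Mapk8ip3, which links cargo to kinesin-1, had a difference of 1.51 and a log2FC of 0.07 (adjusted p = 0.978), and Dynll1, a short dynein light chain, one of -1.21. Tubulins, microtubule proteins and neurofilaments were nearly balanced, with 16 of 50 standing apart as higher and 13 as lower, and so was actin assembly, with 16 and 15 of 52.

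**Figure D5:**
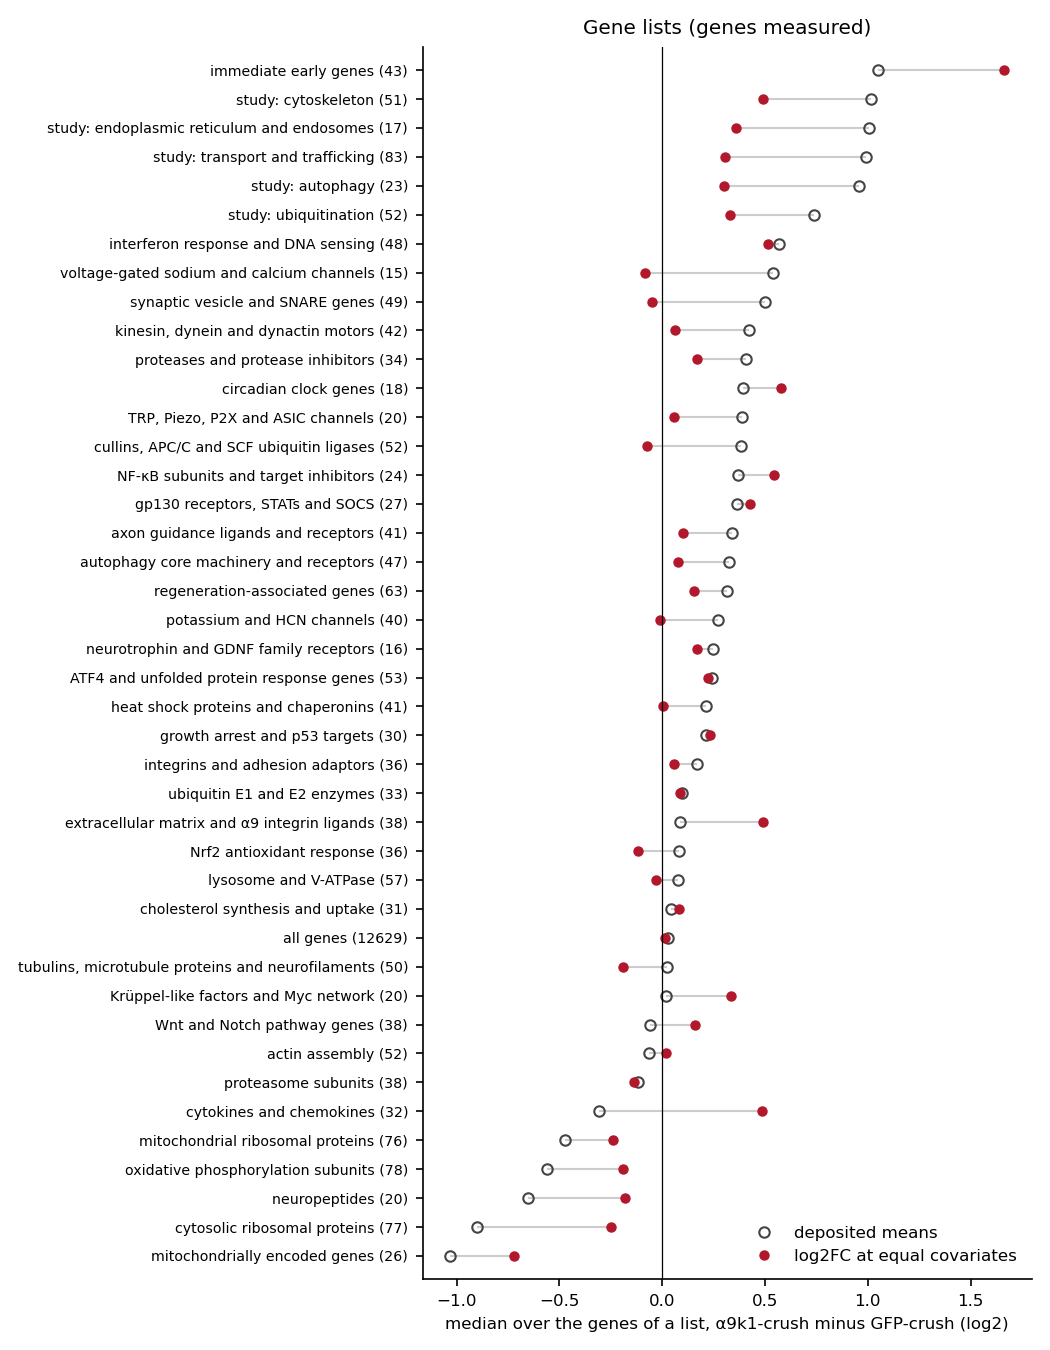
Median α9k1-crush minus GFP-crush difference (log2, x axis) over the measured members of the gene lists other than the delivered genes, the candidate regulators and the cell type markers (y axis, with the number of genes measured), for deposited means (open circles) and for log2FC at equal covariates (filled circles). Names that begin with "study" are lists the study chose on these samples. Of the lists drawn, immediate early genes are highest on both measures (1.66 and 1.05) and mitochondrially encoded genes lowest (-0.72 and -1.03), and the 5 study lists and the synaptic genes lie farther to the right in the deposited means than at equal covariates.

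Neuronal gene families were compared to see whether the identity of the sorted cells differed. Of 14 pan-neuronal markers none rose or fell, and their mean deposited value was 8.40 to 8.77 in α9k1-crush and 8.14 to 8.49 in GFP-crush. Without crush it was 7.42 to 7.73 with α9k1 and 7.87 to 8.23 with GFP, and 2 interactions passed as positive. After crush 4 of the 14 stood apart as higher and 2 as lower, with differences from -0.66 to 1.23 and a median log2FC of -0.26. Among those higher, Snap25, a SNARE protein of all neurons, stood at 11.18, 10.74, 10.82 and 10.76 against 10.43, 10.59, 9.77 and 9.90. Nociceptor markers averaged 4.38 to 6.05 and 5.18 to 6.09 and overlapped. Their median deposited difference was -0.44 and their median log2FC -0.28, with 2 of 14 above 0. Markers of mechanoreceptors and proprioceptors averaged 5.67 to 5.89 and 5.34 to 5.68 and overlapped narrowly. Their medians were 0.30 and 0.33, with 7 of 12 log2FC above 0. Without crush these markers averaged 4.54 to 4.81 with α9k1 and 5.16 to 5.53 with GFP, and 3 of their interactions passed as positive. Nociceptor markers overlapped there. The part of a different mix of neurons was not tested. Synaptic vesicle and SNARE genes stood apart as higher for 19 of 49 and as lower for 4, with a median difference of 0.50, but a median log2FC of -0.05, and none passed. Sv2b, a synaptic vesicle glycoprotein, had the largest difference of these, 2.43 (log2FC 1.31, SE 0.52, adjusted p = 0.457).

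No gene of the ion channel and neuropeptide lists passed the test. None of 15 sodium and calcium channel genes, 40 potassium and HCN channels, 20 TRP, Piezo, P2X and ASIC channels or 20 neuropeptides rose or fell. Kcns1, a modulatory potassium channel subunit of large sensory neurons, had a positive interaction (4.15, SE 0.66, adjusted p = 0.0102), being 1.12 higher with α9k1 after crush and 3.11 lower without. Kcns1 is one of the 12 measured mechanoreceptor and proprioceptor markers, of which 3 had a positive interaction, beside 1.35% of all genes. Among 41 axon guidance ligands and receptors 13 stood apart as higher, none as lower, and none rose or fell. Efnb2, which encodes the transmembrane guidance ligand ephrin-B2, stood at 4.29, 3.98, 4.53 and 3.52 in α9k1-crush and at 2.37, 2.42, 1.88 and 2.26 in GFP-crush (log2FC 1.41, SE 0.47, adjusted p = 0.331). Without crush its order was reversed, at 1.05 to 1.95 with α9k1 and 2.20 to 2.94 with GFP, and the interaction passed (2.82, SE 0.44, adjusted p = 0.0102).

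None of 38 extracellular matrix genes rose or fell, but 11 had a positive interaction and none a negative one. Col3a1, a fibrillar collagen, was 0.66 higher with α9k1 after crush and lower without, with means of 4.73 and 6.87 (interaction 3.57, adjusted p = 0.00221). Tnc, which encodes the α9 ligand tenascin-C, was 1.48 higher in deposited means and stood apart without passing (adjusted p = 0.69). Of 12 markers of fibroblasts, Col3a1 among them, 9 were measured. Their mean value was 4.96 to 5.61 in α9k1-crush and 5.63 to 6.06 in GFP-crush, without overlap, and 4.17 to 5.64 in α9k1-naive and 6.64 to 6.95 in GFP-naive. At equal covariates the sign after crush was the opposite, with a median log2FC of 0.63 and 6 of 9 above 0, beside a median deposited difference of -0.73, and 5 of their interactions passed as positive. Markers of endothelial cells and pericytes ranged from 2.05 to 3.04 and from 2.80 to 3.55 after crush and from 1.72 to 2.53 and from 3.69 to 4.14 without, and their median deposited difference of -0.56 stood beside a median log2FC of 0.51, with 8 of 9 above 0 and 3 positive interactions. Of Schwann cell markers, 7 of 12 had a positive interaction, and their means were 7.01 to 7.90 and 7.45 to 8.09 after crush but 5.64 to 6.09 and 7.29 to 7.71 without, with a median deposited difference of -0.49 and a median log2FC of 0.21 after crush, 10 of 12 being above 0 at equal covariates. Satellite glia markers averaged 6.81 to 7.22 and 7.19 to 7.66 after crush, where 4 of 12 stood apart as lower and 1 as higher, and 7.99 to 8.21 and 7.88 to 8.18 without, and 1 of their interactions passed, as negative. Among markers of all these cell types Egr2, counted above as an immediate early gene, was the only one that rose or fell. The part of these cells in the matrix results was not tested.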

How the data were processed

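RNA of sorted DRG cells was profiled in 19 libraries (α9k1-crush 4, α9k1-naive 6, GFP-crush 4, GFP-naive 5), grouped by the treatment and genotype in the labels. Per the study's methods, the authors aligned reads with STAR to mm10, counted genes with Salmon and computed library metrics with Picard, and versions are not given in the sources used here. The values used are log2 normalised expression, which the authors deposited after cqn correction for gene length and sequencing depth, for 12629 genes, of which 10750 are protein coding. Gene counts were not used here. The deposited library metrics comprise counts of reads and bases, numbers of reads by strand, fractions, percent dropout and ratios of coverage. The gene table deposited by the authors also holds fold changes, p-values and a mean expression score of their own comparisons. Only the score was used, to check the row order, and gave a rank correlation of 0.999 with the row means of the deposited values.

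The first 3 principal components of 48 scaled library metrics held 45.9, 24.1 and 11.5% of their variance and served as covariates. limma 3.58.1 (R 4.3.3) was fitted to all 19 libraries with 4 group means and the 3 covariates, and genes passed at a Benjamini-Hochberg adjusted p (over every gene measured) under 0.1. The batch term of the study's model is not in the labels and was left out. The interaction contrast came from the same fit. Residual degrees of freedom were 12. On simulated data for α9k1-crush versus GFP-crush, with 200 of 12629 genes changed, log2 changes of 1, 2 and 4 were recovered for 16.5, 65.0 and 95.5% of genes with covariates and for 79.0, 96.0 and 99.5% without. No pseudocount or filter was added. Whether same-numbered libraries of both crush groups deviated together was checked, with correlations of 0.0346, -0.269, -0.204 and 0.0571, so the numbers were not taken as pairs.

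Gene lists and cell type markers are described by members that passed, by members whose libraries did not overlap and by medians, beside the same over all genes. Genes named are both delivered genes, the 10 largest and 10 smallest log2FC among genes that passed without overlap, up to 4 members per list that passed and up to 4 that only did not overlap, the study's candidate regulators, the 5 largest and 5 smallest interactions among genes that passed, and cell type markers. Of the genes this rule gives, a selection is described, chosen with values known, and 1 result is not reported here. Others were named after their values had been seen. The comparison, its members and the lists were chosen with earlier results of these data known. Exon overlaps were found in 39 of the 115 genes that passed (GENCODE M21), and counting by strand is not stated. Promoter windows came from RefSeq (GRCm38.p6). Alternatives tried were other covariates, other samples, a replicate block, a filter on low values, other normalisations, array weights and leaving out each library.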

Additional observations from a re-analysis of the deposited data

Results flagged for a closer look

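The α9k1 difference after crush differed from that without crush, by the interaction test, for 22 of the 112 genes named, beside 2.2% of all genes. Part of the 112 were named for their interaction or after their values had been seen, so this count is not independent of the choice, and these differences are given as values without a cause. Among genes lower in α9k1-crush the interaction was -8.20 for Slpi (adjusted p = 0.00195), -3.37 for Samhd1 (adjusted p = 0.00475) and -3.40 for Il4i1 (adjusted p = 0.0246). For chemokines it was -4.36 for Ccl12, -4.02 for Cxcl9, -3.51 for Cxcl11, -3.42 for Ccl5 and -2.14 for Ccl7, and for the DNA sensor Mb21d1 it was -1.78. Gm25248, annotated as a miRNA gene, had an interaction of -6.25 (adjusted p = 0.00195), while its deposited means were 0.77 higher with α9k1 after crush and 1.75 higher without. It was -2.57 for Hmox1, -1.46 for Cd274, -1.32 for Pfkfb3 and -1.14 for Fam110a. Positive interactions were 4.15 for Kcns1, 3.57 for Col3a1, 2.97 for Txnip, 2.82 for Efnb2, 2.60 for Cybb, 1.59 for Hspa1a, 1.49 for Hspa1b and 0.78 for the casein kinase gene Csnk1a1 (adjusted p = 0.0752).

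In 12 of 224 groups of 4 libraries examined for the named genes, 1 library stood far from the other three, and chance alone gives about 1 in 20. Low libraries were α9k1-crush 1 for Nedd9 (4.88), α9k1-crush 3 for Tfpi2 (4.92), Nfkbiz (4.12) and Txnip (3.70), α9k1-crush 4 for Rsad2 (4.38), Runx3 (2.87) and Tnc (4.85), and GFP-crush 2 for Cxcl9 (7.70) and Txnip (5.03). High libraries were α9k1-crush 2 for Bhlhe40 (6.85), α9k1-crush 4 for Samhd1 (3.20) and GFP-crush 3 for Stat3 (6.51).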

How the results depend on the processing

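The number of genes that passed depended on the covariates more than on any other choice tried. Higher and lower genes numbered 92 and 23 with 3 covariates, 659 and 585 with AlignSeq.PC1 and PC2 only, 3160 and 2977 with AlignSeq.PC1 only, and 3743 and 3580 without covariates. Positive and negative interactions numbered 171 and 107, 2048 and 1318, 2468 and 1652, and 2943 and 2027 in the same order. With the 8 crush libraries alone limma passed 0 and 0 genes with covariates, at 3 residual degrees of freedom and with 852 genes at an unadjusted p under 0.05, and 3409 and 3298 without covariates. A replicate block gave 53 and 4 genes and 19 and 7 interactions, and without covariates, an alternative chosen after seeing the data, 3731 and 3533 genes and 2706 and 1778 interactions. Same-numbered libraries of both crush groups did not deviate together, which was not checked for the naive groups, and 40 of the 72 named genes that passed did so under it. Array weights gave 45 lower genes and 354 positive and 196 negative interactions. Removing trends with GC content and length gave 107 positive interactions and centring libraries on their medians 167 negative ones.

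Leaving out 1 library in turn gave 58 to 126 higher genes, 2 to 41 lower genes, 68 to 268 positive and 44 to 173 negative interactions. The fewest higher genes came without GFP-crush 2, the fewest lower without α9k1-naive 4 and the most lower without α9k1-naive 6. Lower genes also moved by over 1.5 times without α9k1-crush 4 (10), α9k1-naive 3 (13), GFP-naive 1 (10) or GFP-naive 3 (12). Of the named genes that passed, 37 did so in every such fit, and 27 failed without GFP-crush 2, 26 without α9k1-naive 4 and 24 without GFP-naive 1. Direction was kept in every fit by 90 of the 92 higher and 21 of the 23 lower genes. Among named genes the log2FC changed sign for Klf4 (-0.0309 without covariates, also with a block or with the 8 libraries alone, and -0.0405 with AlignSeq.PC1 only), Gm14388 (1.19 and 1.51) and Gm25248 (0.77 without covariates). Over all genes the median log2FC lay between -0.0699 and 0.0442 in every setting. The causes were not tested. The deposited values hold no reads per gene, so counting error is unknown and precision rests on 4 libraries a group.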

Other observations

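Further genes of signalling and metabolism are given here, of which Bhlhe40 and Hmox1 belong to the circadian clock and antioxidant lists and the others were named after their values were seen. Arid5a, which encodes an RNA-binding protein that stabilises Il6 mRNA, stood at 7.56, 7.88, 7.24 and 7.60 in α9k1-crush and at 5.0, 5.15, 4.92 and 4.93 in GFP-crush (log2FC 2.76, SE 0.35, adjusted p = 0.0011 by limma). Fam110a stood at 4.83, 4.96, 4.91 and 4.69 against 3.02, 2.71, 2.77 and 2.95 (log2FC 2.37, SE 0.26, adjusted p = 0.000355). Sphk1, which encodes sphingosine kinase 1, rose by 2.06 (adjusted p = 0.00127), Ifrd1, a transcriptional co-regulator, by 2.86 (adjusted p = 0.0011), and Bhlhe40, a repressor of the circadian clock, by 2.13 (adjusted p = 0.00827). The libraries of both crush groups were apart for each of these genes. On the opposite strand Sphk1 shares 192 exon bases with Gm29292, Ifrd1 321 with Gm7008 and Bhlhe40 118 with 0610040F04Rik.

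Cd274, which encodes PD-L1, stood at 4.89, 5.08, 4.97 and 4.72 in α9k1-crush and at 2.89, 3.01, 2.97 and 2.68 in GFP-crush (log2FC 1.96, SE 0.29, adjusted p = 0.00379). Its interaction of -1.46 passed (adjusted p = 0.0242), since the difference without crush was 3.41. It shares 511 exon bases with AC119228.1 on the opposite strand. Lower differences after crush than without were also found for Hmox1, which encodes heme oxygenase 1, and Pfkfb3, an activator of glycolysis. Hmox1 had a difference of 1.39 after crush and of 3.45 without (log2FC 0.77, adjusted p = 0.49, interaction -2.57, adjusted p = 0.00184), and Pfkfb3 of 2.37 and 3.06 (log2FC 1.39, adjusted p = 0.0955 and passing in 5 of the 19 fits without 1 library, interaction -1.32, adjusted p = 0.0641). Txnip, which encodes an inhibitor of thioredoxin, moved the other way, with a difference of -1.04 after crush and of -3.55 without (log2FC -0.58, adjusted p = 0.754, interaction 2.97, adjusted p = 0.006).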
